A study of Mus musculus with 12 samples.

Results

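Fos, Fosb, Jun, Junb, Jund, Egr1, Atf3, Ier2, Ier3 and Zfp36 are immediate early genes that tissue dissociation is known to induce. They were picked by gene symbol on that ground and followed through every library of hepatocytes isolated from fatty mouse livers. All 10 were found among the 52636 genes of the table, and 9 of them passed the minimum for the tests, 10 or more in 3 or more libraries. Ier3 did not pass. The livers came from 3 wild-type (WT) mice and 3 mice with a knockout (KO) of Ptprk, which encodes the receptor-type tyrosine phosphatase kappa. From each liver, viable hepatocytes poor in fat (low-fat) and rich in fat (high-fat) were obtained with a Percoll gradient and differential centrifugation. Each fraction gave 1 library of polyA RNA, so that 12 libraries make up 4 groups of 3, a low-fat and a high-fat group of either genotype. The fractions with the same replicate number and genotype came from the same mouse, per the sample names, and mice are called here by genotype and replicate number. The replicate numbers are those of the sample titles. The mouse names in the sample descriptions carry other numbers for every mouse but WT mouse 1. An equal replicate number is thus no record of a match between a WT and a KO mouse. All 4 groups went through cell isolation, and no library of undissociated liver was analysed here, so a rise on isolation was not measured. Strain, age, diet and the cells in which Ptprk was deleted are not given in the sources used here.

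Immediate early genes are transcribed within minutes of a stimulus by factors already present in the cell, such as serum response factor with its ELK partners and CREB, without new protein synthesis. Fos and Jun family proteins pair with each other to form the transcription factor AP-1, and Atf3 joins the same family of leucine zipper proteins. Egr1 is a zinc finger transcription factor, Ier2 and Ier3 are small immediate early proteins, and Zfp36 encodes tristetraprolin, which binds AU-rich messages and hastens their decay. In liver these genes are known for their fast response to partial hepatectomy, to collagenase digestion and to the plating of hepatocytes.

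Values are reads per 20 M (M, mega), to which the authors scaled every library before rounding up. The depth estimated from the pattern of low values ranged from 15.1 M reads (KO high-fat replicate 3) to 25.0 M (WT low-fat replicate 1). A floor of 3 reads then corresponds to between 2.40 and 3.98 reads per 20 M, and it covers counting error only. Ptprk stood between 2174 and 2883 in the WT libraries and between 1117 and 1364 in the KO libraries. The 8 hepatocyte markers, Alb among them, summed to between 709628 and 878952 in every library. In high-fat against low-fat over both genotypes 1 of these 8 was called higher, Cyp2e1 at 0.71 ± 0.16 (adjusted p = 0.0252; named after its values were seen), beside 5.76% of all genes. With a term for each mouse 1 was called higher and 1 lower, beside 10.5%. Markers of other liver cells were also present and were higher in the high-fat fraction: 8 of 8 stellate cell markers, 8 of 8 endothelial markers and 7 of 9 Kupffer cell markers passed the test of high-fat against low-fat over both genotypes (limma, adjusted p under 0.05), beside 5.76% of all 16563 genes tested. In such bulk libraries fewer cells of a type and less RNA per cell cannot be told apart.

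The promoters of 4 of these genes are shown because they carry the short elements through which the stimuli above are known to act. They come from RefSeq (GRCm38.p6), which is not the build named for the deposited values, and 8 of the 10 genes were matched to a promoter by symbol. Egr1 and Ier2 were not matched, so their promoters were not searched. Both strands of the 250 bases before the start of each gene were searched for TGACG, the core of the cyclic-AMP response element,, the TATA box TATAAA, the EGR site GCGGGGGCG and the CArG box of serum response factor. Capitals mark these matches, and no match overlapped another motif. For Fos, Fosb and Junb the 140 bases from 150 to 11 bases before the start are printed, and for Zfp36 the 30 bases around its CArG box, each 5′ to 3′ on the strand of the gene.
Fos, chr12:85473740-85473879, plus strand: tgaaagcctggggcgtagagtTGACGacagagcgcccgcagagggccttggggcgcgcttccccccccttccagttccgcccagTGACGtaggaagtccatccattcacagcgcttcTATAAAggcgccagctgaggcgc
Fosb, chr7:19310056-19310195, minus strand: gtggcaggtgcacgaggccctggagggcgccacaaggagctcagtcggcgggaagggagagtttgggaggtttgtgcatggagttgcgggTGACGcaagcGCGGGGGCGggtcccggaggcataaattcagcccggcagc
Junb, chr8:84978759-84978898, minus strand: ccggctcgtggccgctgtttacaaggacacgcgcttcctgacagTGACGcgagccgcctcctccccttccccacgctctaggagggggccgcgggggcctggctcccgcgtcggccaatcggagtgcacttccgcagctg
Zfp36, chr7:28379267-28379296, minus strand: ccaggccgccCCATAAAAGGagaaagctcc

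The core element TGACG was found in the windows of 4 of the 8 genes (Fos, Fosb, Junb and Atf3) and in 17.8% of the 32851 RefSeq promoters. Fos held it at 2 places, 129 to 125 and 66 to 62 bases before its start, and had the only TATA box among the 8 windows, 33 to 28 bases before the start (12.4% of all promoters). The EGR site was found in Fosb and Zfp36 (2.57% of all promoters), and the CArG box in Zfp36, 58 to 49 bases before its start (1.47%). The window of Zfp36 lies in an annotated exon. Elements farther than 250 bases before a start were not searched for, so a gene without a match here may have one there. These matches are a description of letters in these windows.

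Fos, the prototype of the family, had values of 140, 273 and 184 in WT low-fat replicates 1 to 3 and of 492, 186 and 133 in WT high-fat replicates 1 to 3. In KO libraries it stood at 69, 1577 and 259 in the low-fat fraction and at 165, 612 and 201 in the high-fat fraction. The highest and the lowest library of Fos were thus in the same group, KO low-fat, 22.9-fold apart, and the ranges of the groups overlapped in every comparison. Fosb, its close relative, had 18, 25 and 15 in WT low-fat, 212, 21 and 18 in WT high-fat, 7, 210 and 23 in KO low-fat and 25, 61 and 23 in KO high-fat. For Fosb 2 libraries stood far above the other 10, WT high-fat replicate 1 and KO low-fat replicate 2, which differ in both genotype and fraction.

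Jun, the most common partner of Fos in AP-1, had 2348, 2314 and 2044 in WT low-fat and 3806, 2271 and 2563 in WT high-fat libraries. In KO libraries it had 796, 4367 and 2521 in the low-fat fraction and 2063, 3536 and 2625 in the high-fat fraction, so that KO low-fat again held both ends of the range, 5.49-fold apart. Junb, which tempers Jun activity in many settings, had 920, 1545 and 1339 in WT low-fat, 1372, 1166 and 1255 in WT high-fat, 723, 3239 and 2611 in KO low-fat and 997, 2666 and 2238 in KO high-fat. KO mice 2 and 3 were above every WT library for Junb in both fractions, while KO mouse 1 was below every WT library of the same fraction. Jund, the Jun family member known to be expressed steadily in resting cells, had 3573, 3622 and 3268 in WT low-fat, 3689, 2997 and 3193 in WT high-fat, 3437, 4352 and 3338 in KO low-fat and 3454, 4027 and 3009 in KO high-fat. Its highest value was 1.45-fold its lowest, against 2.93-fold to 30.3-fold for the other 8 genes tested.

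Atf3, a stress-induced repressor of the ATF family, had 51, 187 and 96 in WT low-fat, 114, 183 and 102 in WT high-fat, 14, 331 and 109 in KO low-fat and 48, 187 and 107 in KO high-fat. Mouse 1 of each genotype was the lowest of its group for Atf3 in 3 of the 4 groups, the exception being WT high-fat, and mouse 2 was the highest in 4 of 4. Egr1, the zinc finger factor, had 992, 595 and 739 in WT low-fat, 1875, 353 and 665 in WT high-fat, 242, 2541 and 1458 in KO low-fat and 709, 976 and 980 in KO high-fat. Its lowest and highest libraries were KO low-fat replicates 1 and 2, 10.5-fold apart.

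Ier2 had 1120, 1075 and 1294 in WT low-fat, 1415, 888 and 1281 in WT high-fat, 713, 2089 and 1445 in KO low-fat and 952, 1591 and 1186 in KO high-fat. Zfp36, the mRNA decay factor, had 3135, 3528 and 3198 in WT low-fat, 4615, 3333 and 3566 in WT high-fat, 2161, 6380 and 3014 in KO low-fat and 3941, 4674 and 2738 in KO high-fat. For both genes KO low-fat replicates 1 and 2 were the ends of the range, 2.93-fold apart for Ier2 and 2.95-fold for Zfp36. Ier3 was low, with values from 1 to 11 beside floors of 2.40 to 3.98. It had 4, 2 and 2 in WT low-fat, 11, 5 and 7 in WT high-fat, 1, 6 and 3 in KO low-fat and 9, 5 and 2 in KO high-fat. No fold change is given for it. Without the minimum on low values, 30472 genes could be tested and Ier3 was not called in any comparison (lowest limma adjusted p = 0.373, high-fat against low-fat over both genotypes).

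**Figure D1:**
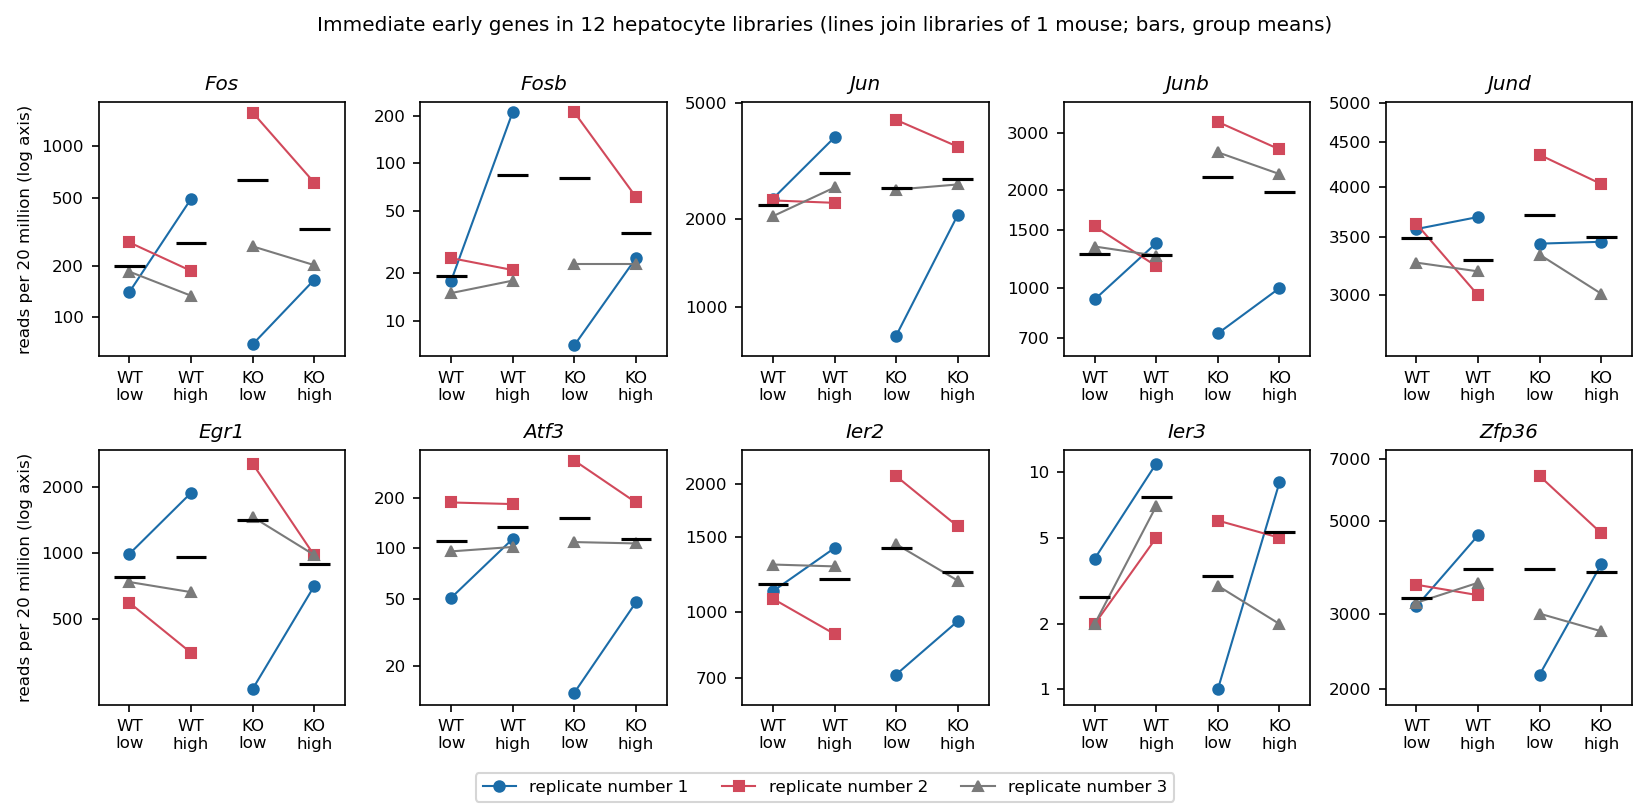
Value of each immediate early gene in every library (y axis, reads per 20 M, log axis with a range of its own in each panel) by genotype and fat fraction (x axis); symbols and colours mark the replicate number, lines join the low-fat and high-fat library of 1 mouse, and black bars are group means (n = 3). KO low-fat replicate 2 is at or near the top of 9 panels, Ier3 being the exception, and KO low-fat replicate 1 is at the bottom of 9 panels, Jund being the exception.

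Per kilobase of exon in the GENCODE M21 annotation, the median over the 12 libraries was 2066 reads per 20 M for Jund, 988.6 for Zfp36, 810.4 for Ier2, 763.4 for Jun, 589.1 for Junb, 191.2 for Egr1, 82.3 for Fos, 50.1 for Atf3, 3.98 for Ier3 and 3.68 for Fosb. Jund was thus the most abundant of the 10 per length, and its lowest library was closer to its median than for any other gene tested. The order of neighbours such as Zfp36, Ier2 and Jun lies within the spread between their libraries. Genes on the other strand overlap 5 of the 10: Junos at Jun, Prdx2 at Junb, Gm11175 at Jund, Gm24748 at Atf3 and Gm44710 at Zfp36. Whether the counting used strand is not given in the sources used here, so reads of these pairs cannot be told apart.

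The 9 genes were compared between KO and WT hepatocytes with limma on log2(value + 2), with Benjamini-Hochberg adjustment over all genes, and none of the 9 passed in either fraction. In the low-fat fraction 0 of 9 passed, beside 0.00604% of all genes tested, which is 1 gene, Ptprk itself. An unadjusted p under 0.05 was found for 0 of 9, beside 1.64% of all genes. Junb came to a log2 fold change of 0.57 ± 0.49 (SE; adjusted p = 1), Fos to 0.68 ± 0.90, Fosb to 0.80 ± 1.05 and Egr1 to 0.36 ± 0.73. The values of the others were -0.10 ± 0.45 for Jun, -0.24 ± 0.88 for Atf3, 0.17 ± 0.32 for Ier2, 0.09 ± 0.30 for Zfp36 and 0.09 ± 0.12 for Jund. Of the 9 values only that of Junb was larger than its error. In the high-fat fraction 0 of 9 passed, again beside 0.00604%, with fold changes from -0.38 ± 1.05 (Fosb) to 0.54 ± 0.49 (Junb) on the log2 scale. There too 0 of 9 had an unadjusted p under 0.05, beside 1.97% of all genes. KO and WT libraries overlapped for 9 of 9 genes in either fraction, while 5.43% of all genes showed no overlap in low-fat and 4.92% in high-fat hepatocytes. Because the errors of Fos, Fosb and Atf3 are near 1 on the log2 scale, a difference as large as 2-fold between the genotypes was not detectable for them with 3 mice a group.

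Leaving out 1 library turned the sign of several of these values. Without KO low-fat replicate 2 the low-fat fold change of Fos fell from 0.68 to -0.48, and without KO low-fat replicate 1 it rose to 1.71. For Atf3 the same 2 libraries moved it between -1.21 and 0.93. Junb kept its direction, KO above WT, when any 1 library was left out, with values of 0.18 to 1.21 in low-fat and 0.26 to 1.04 in high-fat hepatocytes. It was called in none of these fits.

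The comparison of high-fat with low-fat hepatocytes gave no call for these genes either. Over both genotypes 0 of 9 passed, beside 5.76% of all genes tested (954 genes), and 0 of 9 had an unadjusted p under 0.05, beside 18.9%. Jund came closest, with a log2 fold change of -0.16 ± 0.09 (SE; adjusted p = 0.337). Its high-fat library was the lower one in 6 of 6 mice after rescaling, at -0.08 to -0.28. On the authors' scaling alone it was lower in 4 of 6 mice, and at 0.0461 and 0.00711 in WT and KO mouse 1. With a term for each mouse the adjusted p of Jund was 0.0831 (unadjusted 0.0128), in a fit that called 10.5% of all genes and gave 28.3% an unadjusted p under 0.05. Fosb had 0.48 ± 0.75, Jun 0.28 ± 0.32, Atf3 0.26 ± 0.63 and Zfp36 0.08 ± 0.21, and Fos (-0.02 ± 0.64), Junb (-0.07 ± 0.35), Egr1 (-0.14 ± 0.52) and Ier2 (-0.11 ± 0.23) were on the other side of 0. The median over the 9 genes was -0.02, beside -0.04 over all genes.

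Within WT alone 0 of 9 genes passed, beside 0% of all genes (1.02% with a term for each mouse). An unadjusted p under 0.05 was found for 0 of 9, beside 11.5%, and with a term for each mouse for 1 of 9, Jund, beside 19.2%. Within KO alone 0 of 9 passed, beside 0.894% of all genes (2.13% with a term for each mouse), and 0 of 9 had an unadjusted p under 0.05, beside 8.95%. Jund was the 1 gene of the 9 whose WT high-fat and low-fat groups did not overlap after rescaling, beside 17.9% of all genes. In KO there was none, beside 13.5%. The difference between the 2 genotypes in the response to fat content, the interaction, was called for 0 of 9 genes and for 0% of all genes. An unadjusted p under 0.05 was found for 0 of 9 and for 0.145% of all genes. The value farthest from 0 was that of Fosb, -1.18 ± 1.49, which went from -2.16 to 0.084 on leaving out 1 library.

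**Figure D2:**
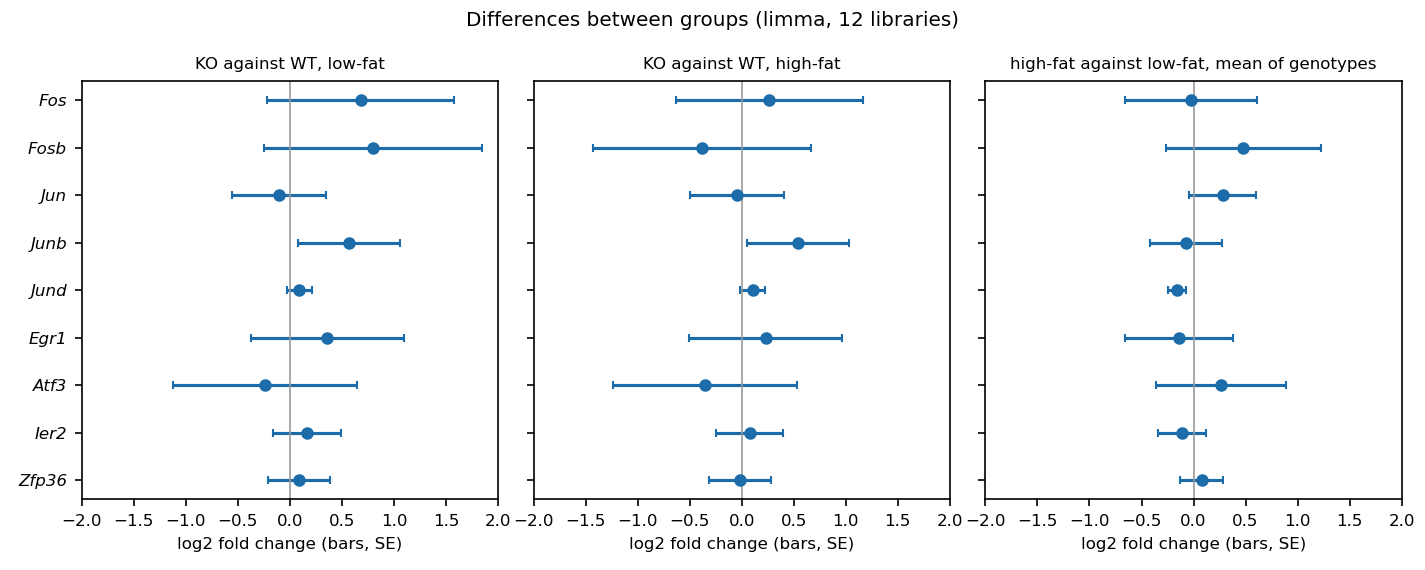
Log2 fold change of the 9 genes tested (points; bars are 1 standard error, limma over 12 libraries) for KO against WT in low-fat and in high-fat hepatocytes and for high-fat against low-fat over both genotypes. The bars of Fos, Fosb and Atf3 are the widest and those of Jund the narrowest, and no gene passed the test in any of the panels.

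Mice of the same group differed in these genes. The residual standard deviation within groups was 1.53 log2 units for Fosb, 1.32 for Fos, 1.29 for Atf3, 1.08 for Egr1, 0.72 for Junb, 0.66 for Jun, 0.47 for Ier2, 0.43 for Zfp36 and 0.15 for Jund. The median of the 9 was 0.72, beside 0.23 over all genes tested, and 4 of 9 (Fosb, Fos, Atf3 and Egr1) were over the 90th percentile of all genes, 0.73. Among genes within 1 log2 unit of the same level, each of the 9 except Jund lay between percentile 94.45 (Zfp36) and percentile 99.58 (Fosb) for this spread, and Jund at percentile 43.25. Some other lists spread as widely: 8 of 9 Kupffer cell markers (median 0.947) and 4 of 8 stellate cell markers (median 0.729) were over the 90th percentile of all genes. So were 3 of 3 secreted inflammatory factors and 2 of 3 nuclear-retained RNAs. Of heat shock genes 2 of 14 were, and of endothelial and hepatocyte markers 0 of 8 each. These are descriptions of 12 libraries with no test. Without the libraries of KO mouse 1 the count over the 90th percentile was 4 of 9, without those of KO mouse 2 it was 4 of 9, and without those of WT mouse 1 it was 6 of 9.

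**Figure D3:**
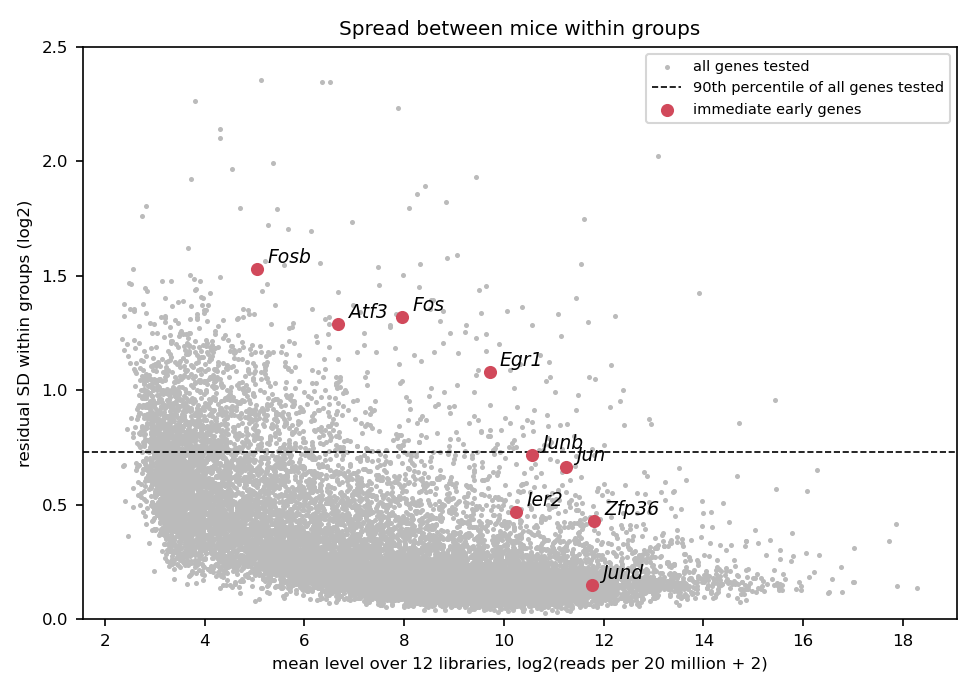
Residual standard deviation within the 4 groups (y axis, log2 units) against the mean level over 12 libraries (x axis, log2(reads per 20 M + 2)) for all 16563 genes tested (grey) and the 9 immediate early genes (red). The dashed line is the 90th percentile, 0.73; Fosb, Fos, Atf3 and Egr1 lie above it and Jund lies within the bulk of genes.

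The same 2 libraries were at the ends of the range for most of these genes. KO low-fat replicate 2 was the highest of the 12 libraries for 9 of 9 genes, beside 6.86% of all genes tested, and KO low-fat replicate 1 the lowest for 8 of 9, beside 11.3%. On the authors' scaling alone the first count was 8 of 9, since Fosb was at 212 in WT high-fat replicate 1 and at 210 in KO low-fat replicate 2. Jund was lowest in WT high-fat replicate 2, as were 20.6% of all genes. Averaged over its 2 fractions, KO mouse 2 was the highest of the 6 mice for 9 of 9 genes and KO mouse 1 the lowest for 8 of 9. These averages contain KO low-fat replicates 2 and 1, so these 2 counts are not separate from those of the libraries. No share over all genes is given for these counts or for those by mouse that follow. In the high-fat fraction alone KO mouse 2 was the highest for 6 of 9 and WT mouse 1 for 3. The lowest there was KO mouse 1 for 3 of 9, WT mouse 2 for 3, WT mouse 3 for 2 and KO mouse 3 for 1. The range of the 6 mouse means over both fractions was 3.17 log2 units for Fos, 3.15 for Atf3 and 2.89 for Fosb. The largest difference between groups was 0.68 for Fos, 0.35 for Atf3 and 1.07 for Fosb. The first is a range over 6 mouse means and the second a difference between means of 3 libraries, so their sizes cannot be compared directly. The 2 libraries of a mouse shared part of the deviation from their group means: their correlation had a median of 0.63 over the 9 genes, beside 0.33 over all genes, from 0.34 (Fosb) to 0.87 (Junb), over 6 mice. Each gene also followed the mean of the other 8 across the 12 libraries, with Pearson r from 0.73 (Atf3) to 0.96 (Fos), except Jund at 0.49. The 12 libraries come from 6 mice and share their scaling.

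The direction of the difference between fractions differed among the mice. In WT mouse 1 the high-fat library was above the low-fat library for 8 of 9 genes (47.3% of all genes tested), and in KO mouse 1 for 8 of 9 (44.2%). In WT mouse 2 it was above for 0 of 9 (37.8%) and in KO mouse 2 for 0 of 9 (52%), in WT mouse 3 for 3 of 9 (46.5%) and in KO mouse 3 for 2 of 9 (42.7%). With median-of-ratios scaling these counts were 8, 8, 2, 0, 3 and 3 of 9, and on the authors' scaling alone 9, 9, 0, 0, 4 and 1 of 9, in the same order of mice. The counts of KO mice 1 and 2 follow from their low-fat libraries, lowest for 8 of 9 and highest for 9 of 9 after rescaling. They are thus no pattern separate from that order of libraries. Fos was 3.18-fold higher in the high-fat library of WT mouse 1 and 2.02-fold higher in KO mouse 1, but at 0.679 of its low-fat level in WT mouse 2 and at 0.392 in KO mouse 2. Egr1 ran likewise, at 1.73 and 2.49 times the low-fat level in WT and KO mouse 1, and at 0.59 and 0.388 of it in WT and KO mouse 2. The medians over the 9 genes were 0.57 and 1.01 log2 units in WT and KO mouse 1, -0.28 and -0.44 in WT and KO mouse 2, and -0.12 and -0.14 in WT and KO mouse 3. The sign of the median was thus the same in WT and KO mice of the same replicate number. In KO mice 1 and 2 that sign was set by the low-fat libraries named above. The labels tie these numbers to no shared day or batch, and their part in the result was not tested.

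**Figure D4:**
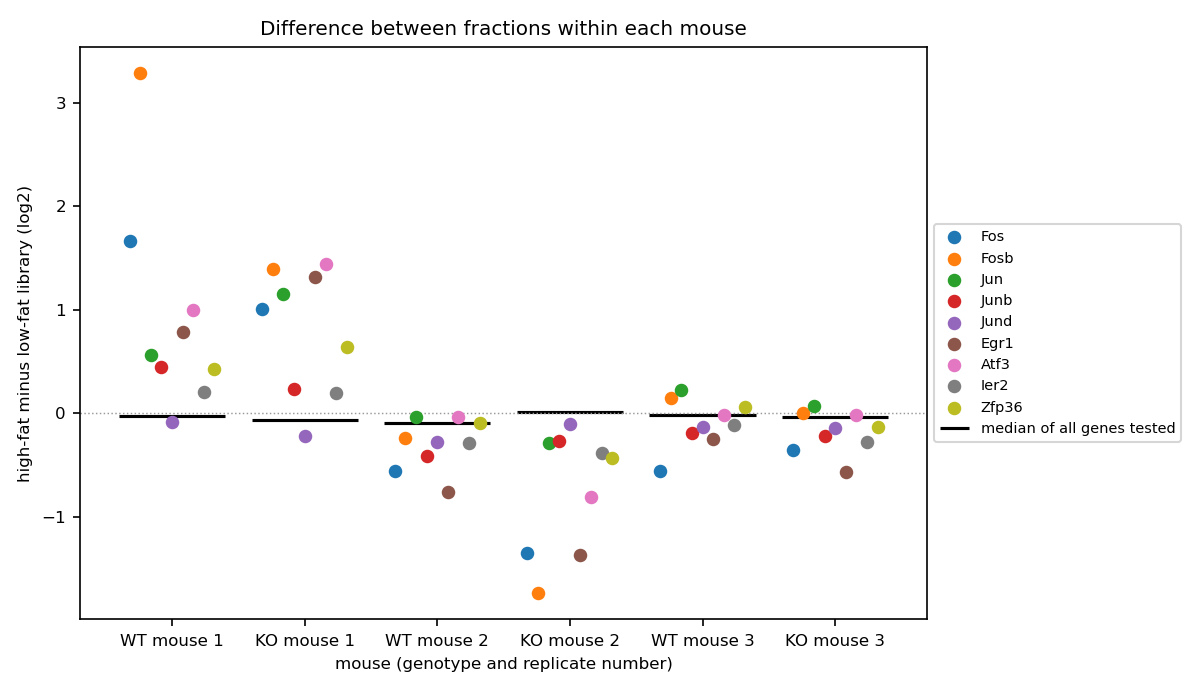
High-fat minus low-fat library (y axis, log2 units) for the 9 genes tested (coloured points) in each of the 6 mice (x axis), with the median of all genes tested as black lines. Points lie mostly above 0 in WT and KO mouse 1 and below 0 in WT and KO mouse 2, with Fosb from 3.29 in WT mouse 1 to -1.74 in KO mouse 2.

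Other immediate early genes were counted from a list of 43, of which 40 were tested. KO against WT called 0 of 40 in either fraction, beside 0.00604% of all genes. High-fat against low-fat over both genotypes called 1 higher and 1 lower of 40, beside 5.76%, and 7 higher and 1 lower with a term for each mouse, beside 10.5%. The 2 genes called without that term, named after their values were seen, were Klf2, a flow-responsive factor of endothelial cells, at 1.18 ± 0.30 (adjusted p = 0.0408), and Btg1, an antiproliferative gene, at -0.31 ± 0.07 (adjusted p = 0.0326). The most abundant of the list, Errfi1, a feedback inhibitor of the EGF receptor, was at -0.21 ± 0.13 (adjusted p = 0.389). Within mice, 35 of 40 were higher in the high-fat library of WT mouse 1 and 37 of 40 in KO mouse 1, against 18 in WT mouse 2, 16 in KO mouse 2, 23 in WT mouse 3 and 21 in KO mouse 3. Of the 40, 17 were over the 90th percentile of residual spread.

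Further AP-1 subunits and their Maf relatives, 9 tested of 12 listed, gave 1 call in high-fat against low-fat over both genotypes, beside 5.76% of all genes: Maf at 0.62 ± 0.14 (adjusted p = 0.0227; named after its values were seen). With a term for each mouse 2 of the 9 were called higher and 1 lower, beside 10.5%. Of 15 genes that carry the signal to immediate early promoters (serum response factor and ELK factors, MAP kinases and CREB), 1 was called in the same comparison, a share near the 5.76% of all genes: the ternary complex factor Elk3 at 1.49 ± 0.25 (adjusted p = 0.0065; likewise named afterwards). With a term for each mouse 1 was called higher and 1 lower, beside 10.5%. The kinase Map2k2 was the most abundant, and 0 of 15 were over the 90th percentile of spread. Heat shock genes, which are also known to respond to handling, gave 0 calls of 14 in each of the 6 comparisons, which called between 0% and 5.76% of all genes, with Hsp90ab1 at -0.08 ± 0.10. With a term for each mouse 1 rose and 2 fell over both genotypes, beside 10.5% of all genes called in that fit. Between 3 and 11 of the 14 were higher in the high-fat library of a given mouse. Of 10 secreted inflammatory factors 3 were tested, and 0 were called in each of the 6 comparisons, which called between 0% and 5.76% of all genes. The neutrophil chemokine Cxcl1 ranged from 52 in KO high-fat replicate 3 to 332 in KO low-fat replicate 2, the library highest for the 9 immediate early genes.

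Levels of other cells and of nuclear RNA were set beside this pattern, and their order over the libraries was not that of the 9 genes. The 9 Kupffer cell markers, all above 0 in every library, summed to 10671 in WT high-fat replicate 1 and to 9307 in KO high-fat replicate 1, beside 1976 to 2214 in the other 4 high-fat libraries and 450 to 1277 in the low-fat libraries. These were the 2 mice in which the high-fat library was the higher one for 8 of 9 immediate early genes, and their part in the result was not tested. KO low-fat replicate 2, highest for 9 of 9, was at 722, within the range of the low-fat libraries. By the mean of the 9 genes, each standardised over the 12 libraries, KO high-fat replicate 1 ranked 11 from the top and KO high-fat replicate 2 ranked 2. Their Kupffer sums were 9307 and 2179. Stellate cell markers, 8 of 8, were higher in the high-fat library of each mouse, WT and KO mouse 2 included. They summed to between 121 and 620 in low-fat and between 1855 and 3255 in high-fat libraries, with Des at 0 in KO low-fat replicate 1. The 8 endothelial markers summed to between 986 and 2492 in low-fat and between 4222 and 13167 in high-fat libraries. Their median difference between fractions was 2.22 and 2.84 log2 units in WT and KO mouse 1, beside 1.03 to 1.61 in the other 4 mice, and that of the stellate markers was 3.73 in KO mouse 1, beside 1.78 to 2.82 in the other 5. The part of these cells in the result was not tested. The most abundant Kupffer, stellate and endothelial markers were Cd5l (2.47 ± 0.44, adjusted p = 0.00767), Reln (2.41 ± 0.35, adjusted p = 0.00298) and Stab2 (1.43 ± 0.21, adjusted p = 0.00344) in high-fat against low-fat over both genotypes. The nuclear-retained RNAs Malat1, Neat1, Kcnq1ot1 and Meg3 summed to 154340 in WT high-fat replicate 1, 152806 in KO high-fat replicate 1 and 124202 in KO low-fat replicate 2, beside 103787 and 104688 in the libraries of WT mouse 2 and 27592 to 62019 in the other 7. KO high-fat replicate 2 was among these 7, at 32026. Meg3 was listed at 0 in 3 of the 12 libraries. The part of these RNAs in the result was not tested. Biliary, lymphoid and neutrophil markers were low, with 2 of 5, 1 of 6 and 1 of 5 tested (the most abundant were Sox9, Cd3e and Csf3r). Without a term for each mouse 0 of them were called in any comparison, where 0% to 5.76% of all genes were called. With that term 1 biliary marker, Sox9, was called lower in high-fat hepatocytes (limma). Its adjusted p was 0.0483 within WT, 0.0269 within KO and 0.0031 over both genotypes. Those fits called 1.02%, 2.13% and 10.5% of all genes.

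**Figure D5:**
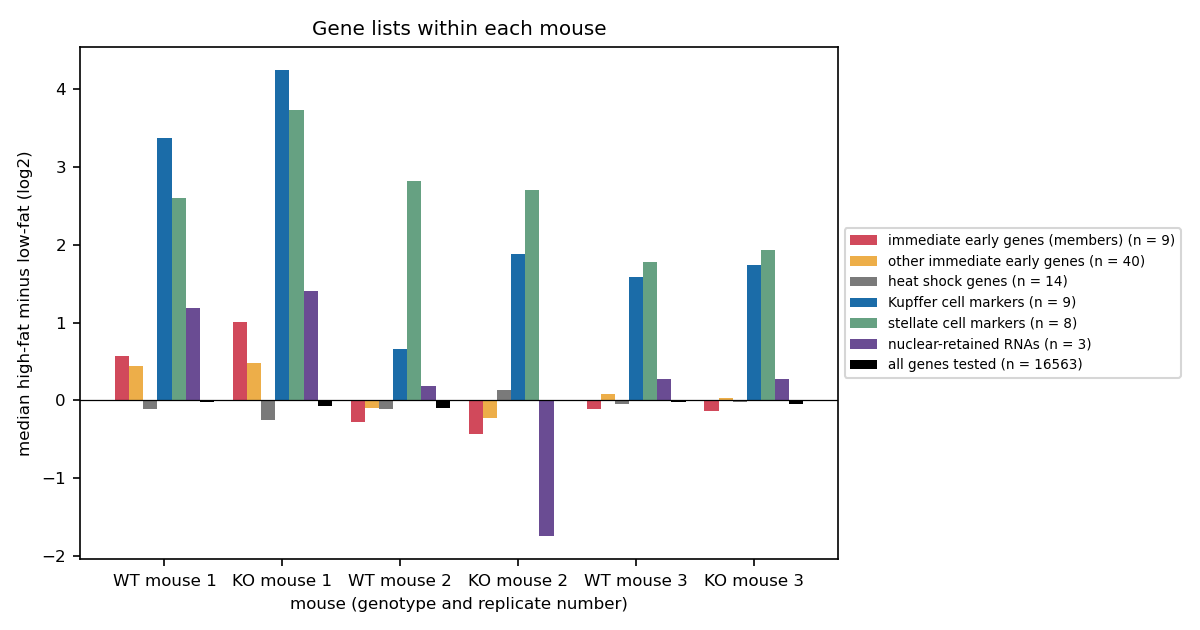
Median high-fat minus low-fat difference (y axis, log2 units) of gene lists in each of the 6 mice (x axis). Immediate early genes are above 0 in WT and KO mouse 1 and below 0 in WT and KO mouse 2, while stellate and Kupffer cell markers are above 0 in all 6 mice and nuclear-retained RNAs are at -1.74 in KO mouse 2.

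The non-members most like the mean of the 9 genes across the 12 libraries, among 10509 genes with a mean of at least 100, were Btg2 (Pearson r = 0.945), an antiproliferative gene that is itself an immediate early gene, Sf3b1 (0.944), a splicing factor, Ddx10 (0.922), an RNA helicase, Wsb1 (0.892) and Junos (0.877). Each was lowest in KO low-fat replicate 1 and highest in KO low-fat replicate 2: Btg2 went from 438 to 2717 and Wsb1 from 258 to 2577, and Sf3b1 from 2639 to 3765. Taken singly, Fos was most like Sf3b1 (0.923), Fosb like Wsb1 (0.891), Jun like Junos (0.982), Junb like Spry4 (0.943), Jund like Gm11175 (0.991), Egr1 like Btg2 (0.932), Atf3 like Zdhhc13 (0.877), Ier2 like Foxo3 (0.959) and Zfp36 like Pim3 (0.937). Junos and Gm11175 are the antisense genes at Jun and Jund whose reads cannot be told apart from theirs here. These correlations are the highest of 10509 over libraries of 6 mice, and describe these libraries. The mean of the 9 genes was itself lowest in KO low-fat replicate 1 and highest in KO low-fat replicate 2. Genes picked for likeness to it share those end libraries by that choice, which is no separate result.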

How the data were processed

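RNA of 12 hepatocyte libraries from 6 mice was analysed. The deposited values are a score: a read count per gene that the authors scaled to 20 M (mega) per library and rounded up to whole numbers, as read from the values themselves. The build mm9 is named in the submitters' processing notes; the aligner, counter, annotation, strandedness and filters are not given in the sources used here. The 10 genes and all gene lists were chosen with earlier results of these data known. Values were rescaled by the trimmed mean of M values (factors 0.928 to 1.09), genes with at least 10 in at least 3 libraries were kept (16563), and limma 3.58.1 (R 4.3.3) with an intensity trend was fitted to log2(value + 2) with 1 mean per group, two-sided, with Benjamini-Hochberg adjustment over all genes and calls at adjusted p under 0.05. Fold changes are on that log2 scale, which understates the change of low genes. With 3 mice per group, p-values rest on the spread between these mice within groups. This fit treats the 12 libraries as independent, although the fractions of a mouse share a liver. For high-fat against low-fat it therefore leaves out the pairing, which the alternative fit with a term for each mouse keeps.

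The low-fat and high-fat fractions of a mouse are paired by the mouse name in the labels; their deviations from group means correlated at 0.471 to 0.581 in WT and -0.0116 to 0.458 in KO. KO and WT mice of the same replicate number are different animals, whose deviations correlated at 0.252 to 0.397 in low-fat and -0.173 to 0.49 in high-fat libraries. These correlations were over 0.1 in every pair in the low-fat fraction but not in the high-fat fraction. The fractions of the KO mice, which the labels pair, did not all exceed 0.1 either. A value over 0.1 can thus not show whether a WT and a KO mouse were matched. No 2 libraries of a group agreed within sampling noise (chi-square of 20.3 to 51.3 per gene). Alternatives were other scalings, pseudocounts of 0.5 and 10, no filter, the libraries compared alone, the replicate block, a same-mouse correlation and leaving out each library. The fitting and the depth estimate were tested on simulated data. Besides the 10 genes, the text names called genes of the lists in order of size up to 20, the most abundant gene of each list, and the genes most alike by Pearson r, 5 for the mean and 1 for each member; the called markers are given by count, and 1 result under this rule is not reported here. Map2k7 of the signalling list stood on 2 rows and was left out.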

Additional observations from a re-analysis of the deposited data

How the results depend on the processing

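No gene of the 9 was called under any alternative: 0 of 1062 member values, the lowest adjusted p being 0.0831 (limma; Jund, high-fat against low-fat over both genotypes, replicate block), and 113 of the 1062 changed sign, 108 of them on leaving out 1 library. On the authors' scaling alone, 5 values changed sign, within WT Junb (0.026), Egr1 (0.0051) and Ier2 (0.016) and over both genotypes Fos (0.049) and Junb (0.0061). Leaving out 1 library at a time gave ranges of log2 fold change that crossed 0. In KO against WT, low-fat, the range was -0.48 to 1.71 for Fos, -0.45 to 1.78 for Fosb, -0.62 to 0.55 for Jun, -0.0067 to 0.16 for Jund, -0.32 to 1.32 for Egr1, -1.21 to 0.93 for Atf3, -0.16 to 0.56 for Ier2 and -0.33 to 0.40 for Zfp36. In KO against WT, high-fat, the range was -0.32 to 0.80 for Fos, -0.96 to 0.71 for Fosb, -0.26 to 0.20 for Jun, -0.012 to 0.18 for Jund, -0.33 to 0.87 for Egr1, -0.81 to 0.22 for Atf3, -0.13 to 0.32 for Ier2 and -0.20 to 0.16 for Zfp36. In high-fat against low-fat within WT the range was -0.36 to 0.55 for Fos, -0.038 to 1.65 for Fosb, -0.26 to 0.036 for Junb, -0.72 to 0.48 for Egr1, -0.13 to 0.71 for Atf3, -0.20 to 0.14 for Ier2 and -0.0102 to 0.23 for Zfp36. Within KO the range was -1.26 to 0.92 for Fos, -1.09 to 1.14 for Fosb, -0.35 to 0.82 for Jun, -0.72 to 0.41 for Junb, -1.17 to 0.47 for Egr1, -0.96 to 1.18 for Atf3, -0.55 to 0.17 for Ier2 and -0.28 to 0.44 for Zfp36. Over both genotypes the range was -0.54 to 0.55 for Fos, -0.081 to 1.10 for Fosb, -0.048 to 0.53 for Jun, -0.39 to 0.17 for Junb, -0.62 to 0.19 for Egr1, -0.32 to 0.74 for Atf3, -0.31 to 0.046 for Ier2 and -0.077 to 0.28 for Zfp36. In the interaction the range was -1.44 to 0.75 for Fos, -2.16 to 0.084 for Fosb, -0.60 to 0.58 for Jun, -0.66 to 0.47 for Junb, -0.10 to 0.12 for Jund, -1.09 to 0.56 for Egr1, -1.28 to 0.87 for Atf3, -0.49 to 0.24 for Ier2 and -0.41 to 0.32 for Zfp36.

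Counts over all genes moved more. The replicate block was a term for each replicate number in KO against WT, where an equal number is no record of a match. In the other comparisons it was a term for each mouse. It called 169 genes within WT (0 without it), 353 within KO (148 without it) and 1731 over both genotypes (954 without it). It changed no call of the 9 genes. An estimated same-mouse correlation called 383, 528 and 1913. Within WT a pseudocount of 10 called 1 gene. With only the libraries compared in the fit, 0 genes were called within KO and 0 in KO against WT, high-fat. Leaving out 1 library gave 0 to 118 genes within WT, 0 to 314 within KO, 606 to 1125 over both genotypes and 0 to 1 in KO against WT, high-fat. Within WT the 118 came without KO low-fat replicate 1. Within KO the count was 0 without WT high-fat replicate 2, KO low-fat replicate 1 or any 1 KO high-fat replicate, 2 without KO low-fat replicate 2, 71 to 75 without WT low-fat replicate 1 or 3 or KO low-fat replicate 3, and 314 without WT high-fat replicate 1. Over both genotypes it was 606 without KO low-fat and 608 without KO high-fat replicate 1, and in KO against WT, high-fat, it was 0 without KO high-fat replicate 1. Leaving out both libraries of a mouse was chosen after seeing the data: without KO mouse 1 the counts were 3 in KO against WT low-fat, 2 in high-fat, 150 within WT, 0 within KO and 351 over both genotypes, without KO mouse 2 they were 0 in KO against WT high-fat and 0 within KO, and without WT mouse 1 they were 243 within KO and 452 over both genotypes. The number of the 9 genes over the 90th percentile of spread was 4 to 5 on leaving out 1 library and 6 without WT mouse 1. Depth limits Ier3, whose values were 1 to 11 beside floors of 2.40 to 3.98.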
